A study of Sus scrofa with 8 samples.

Results

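Genes of the mitochondrial ribosome were examined in left ventricular tissue of 8 pigs. They were taken as all genes whose symbol starts with MRPL (large subunit) or MRPS (small subunit) followed by a digit and whose normalized count (reads divided by the library's size factor) was at least 10 in at least 4 libraries. All 68 genes of that name in the table passed, 42 MRPL and 26 MRPS genes, out of 11660 genes that passed and 14718 gene rows in all. The rule's minimum was far below the members: each of the 68 was at or above 10 in every library, and the lowest in mean count, MRPS18C, had 27.9 to 97.7. Protein-coding symbols of the family number 76 in the RefSeq pig table, and 9 of them (MRPL1, MRPL14, MRPL23, MRPL32, MRPL42, MRPL53, MRPS16, MRPS17 and MRPS21) were not analysed here.

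The study models long QT syndrome in gene-edited pigs and compared 4 wild-type (WT) with 4 mutant animals. Mutant replicates 1 to 3 (pigs 6, 7 and 8) carry a KCNH2 mutation by their genotype label, and the label of mutant replicate 4 (pig 9) reads KCNH3, although the series design names KCNH2 alone. WT replicates 1 to 4 are pigs 1, 2, 4 and 5. KCNH2 encodes the pore-forming subunit of a potassium channel that repolarizes ventricular myocytes. The labels list the tissue as left ventricle, the cell type as heart cells and the cell line as somatic cell. They name no allele, sex, age, litter, batch or treatment, so p-values measure only the spread between these 8 samples.

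Mitochondrial ribosomes translate the few mRNAs of the mitochondrial genome, all of which encode subunits of the respiratory chain and of ATP synthase. Their RNA comes from the mitochondrial genome, but every one of their proteins is encoded in the nucleus, made in the cytosol and imported. About as many of these proteins descend from bacterial ribosomal proteins as were added in the mitochondrial lineage. Heart muscle depends on oxidative metabolism, and inherited defects of several of these proteins cause cardiomyopathy.

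Libraries held 15.9 to 22.4 M reads (M is mega), but the 13 mitochondrially encoded mRNAs took 31.7% to 87.9% of them in WT and 15.9% to 27.5% in mutant libraries. Reads of nuclear genes, among them the 68 members, numbered 11.5 to 16.2 M in 6 libraries, only 7.53 M in replicate 4 and 2.53 M in replicate 3 of WT. The 68 members together had 8949 reads in WT replicate 3 and up to 68169 elsewhere. The summed normalized count of 7 ventricular myocyte markers, which include MYH7, MYL2 and TNNT2, was 464147 to 648916 in WT and 699814 to 769581 in mutant libraries. This sum, which checks the labelled tissue, was high everywhere but higher in the mutants. Taken singly, 5 of the 7 markers had a positive log2 difference (mutant minus WT) and limma called 0. TTN, also among the 8 listed, was not analysed. Summed markers of atrial myocytes, endothelium, fibroblasts, smooth muscle, macrophages and neutrophils overlapped between the groups, and so did those of erythroid cells (49.7 to 31450 in WT, 2511 to 2979 in mutant) and adipocytes. Among the markers tested, 6 of 6 endothelial, 6 of 6 macrophage, 5 of 6 fibroblast and 3 of 6 smooth muscle genes had positive differences. So did 1 of 4 neutrophil, 0 of 4 erythroid, 0 of 2 atrial and 1 of 1 adipocyte genes, and limma called 0 of them. The part of these differences in the results below was not tested. In bulk tissue, fewer cells of a type and less RNA per cell cannot be told apart.

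The mitochondrial ribosomal protein genes as a group had levels that overlapped between the genotypes. Their share of all reads of nuclear genes was 0.51%, 0.409%, 0.353% and 0.383% in the WT libraries (from replicate 1 to 4) and 0.403%, 0.456%, 0.478% and 0.467% in the mutants (same order) (Wilson 95% half-width at most 0.0073 percentage points, counting error only). WT replicate 1 was the highest of all 8, WT replicates 3 and 4 were the lowest, and WT replicate 2 lay just above mutant replicate 1, so the groups overlapped. The mean share was 0.414% ± 0.0683 for WT and 0.451% ± 0.0334 for the mutants (SD, n = 4). On the log2(normalized count + 1) scale, on which all differences below are given as mutant minus WT, the median difference over the 68 genes was 0.14, against 0.12 over all genes tested. It was positive in 45 members and negative in 23, or 66.2% positive against 56.9% of all genes. Leaving out WT replicate 1 gave a median of 0.28 and leaving out WT replicate 4 gave 0.06. With WT replicates 3 and 4 both left out, the median was -0.04 and 32 members were positive.

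No member passed limma with Benjamini-Hochberg adjustment over all 11660 genes (adjusted p = 0.290 to 0.992 over the members). No gene at all passed, so percent called is 0. At an unadjusted p under 0.05 there were 5 members higher (7.06% of all genes) and 4 lower (6.8% of all genes), together 13.2% of the members beside 13.9% of all genes. edgeR's quasi-likelihood test on whole reads recovered from the table called 0 members and DESeq2 also called 0, with 8 members each at an unadjusted p under 0.05. Over all genes edgeR called 0 (14.7% at an unadjusted p under 0.05), and DESeq2 called 4.56% (16.4% at an unadjusted p under 0.05). DESeq2 was run on all gene rows, without the filter, here and below. Its shares here are over 12763 genes with an adjusted p and 14475 with an unadjusted one. Of the 11660 genes that passed the filter, DESeq2 called 162 higher and 384 lower, and 2144 had an unadjusted p under 0.05. The authors' deposited table gives an adjusted p for 67 of the 68 members and calls none, while it calls 4.54% of all genes that have one. Every mutant library exceeded every WT library for 2 members, MRPS9 and MRPS22, and was below every WT library for 3, MRPL20, MRPL41 and MRPS34, against 6.17% and 5.22% of all genes. Without WT replicate 1 the number lying above was 15, and without WT replicate 4 the number lying below was 7. Groups with fewer libraries separate more easily, and the share of all genes in these fits is not given here. These 2 counts therefore cannot be set against 6.17% and 5.22%.

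The estimated differences of individual members were below 2-fold in all but MRPL47. The unadjusted 95% interval of limma lay wholly within a 2-fold change in either direction for 39 of the 68 members (57.4%), and for 25.4% of all genes. The members also had a smaller SE, with a median of 0.28 against 0.41 over all genes. For the remaining 29 members a 2-fold difference was within the interval. The members spread from -0.88 (MRPL20) to 1.47 (MRPL47), with quartiles of -0.11 and 0.39. MRPL genes had a median of 0.19 and MRPS genes of 0.11, and both kinds of symbol contributed members to either end. The order of these medians was reversed with libraries left out, at 0.11 and 0.12 for WT replicate 3, at 0.05 and 0.06 for WT replicate 4, and at -0.08 and 0.07 for both.

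**Figure D1:**
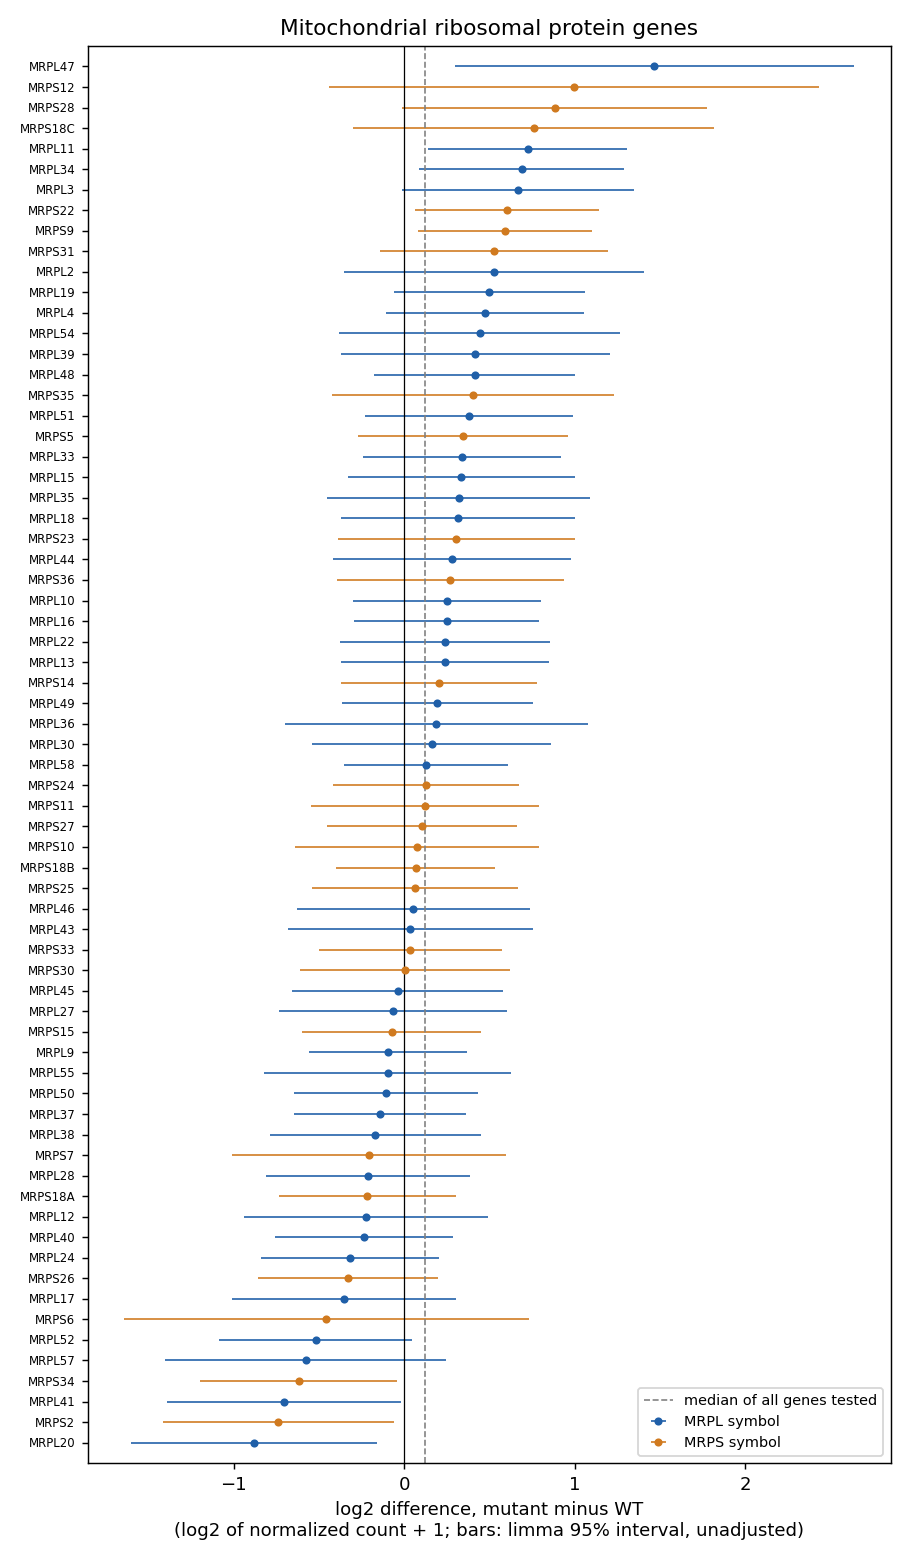
Log2 difference between mutant and WT libraries for each of the 68 genes (points) with the unadjusted 95% interval from limma (bars), ordered by size; blue marks MRPL and orange MRPS symbols, and the dashed line is the median of all genes tested. The points run from -0.88 to 1.47 with both kinds of symbol mixed along the order, and 9 of the 68 intervals do not include 0.

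Among the members with positive differences, MRPL47 had the largest. It encodes the counterpart of a bacterial protein at the exit of the peptide tunnel. It had 273, 143, 43.6 and 82.5 normalized counts in WT (in the order of replicate number, as throughout) and 445, 254, 306 and 246 in the mutants. WT replicate 1 lay above the 2 lowest mutants, and the lowest WT library, replicate 3, rested on 9 reads. The difference was 1.47 ± 0.52 (SE; limma adjusted p = 0.290). MRPL47 overlaps ACTL6A in the RefSeq annotation. Strand-specific counting is not stated, so whether reads of the overlap were told apart is not known. ACTL6A differed by 0.76 ± 0.50 (SE).

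MRPL11, at the base of the stalk where translation factors bind, had 390.2, 313, 223 and 254 in WT and 359, 507, 519.8 and 547 in the mutants. Mutant replicate 1 lay within the WT range and the other 3 mutants lay above it. The difference was 0.72 ± 0.26 (SE; limma adjusted p = 0.290). MRPL34, a small protein of the large subunit with a bacterial counterpart, showed the same arrangement. It had 343, 299, 179 and 266 in WT and 332, 462, 473 and 457 in the mutants, which is a difference of 0.69 ± 0.27 (SE; limma adjusted p = 0.315).

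MRPS9 and MRPS22 were the members whose mutant values all lay above WT. MRPS9, the counterpart of a bacterial protein of the small subunit head, had 708, 527, 397 and 507 in WT and 867, 797, 759 and 735 in mutant libraries. Its difference was 0.59 ± 0.23 (SE; limma adjusted p = 0.312). MRPS22 has no bacterial counterpart, and inherited defects of it cause cardiomyopathy among other signs. It had 386, 374, 242 and 267 in WT and 531, 421, 438 and 509 in mutant libraries, with 386 and 421 as the nearest values. Its difference was 0.60 ± 0.24 (SE; limma adjusted p = 0.320). MRPS28 had 507, 318, 373 and 124 in WT and 566, 449.5, 571 and 597 in the mutants, which is a difference of 0.88 ± 0.40 (SE; limma adjusted p = 0.363) that was 0.47 without WT replicate 4. The differences of all 6 genes were smaller without WT replicates 3 and 4 together. They were then 0.61 for MRPL47, 0.45 for MRPL11, 0.41 for MRPL34, 0.37 for MRPS9, 0.31 for MRPS22 and 0.43 for MRPS28.

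The members with negative differences were led by MRPL20, the counterpart of a bacterial protein that binds ribosomal RNA early in large subunit assembly. It had 871, 826, 1386 and 821 in WT and 285, 692, 598 and 599 in mutant libraries. The groups did not overlap, WT replicate 3 stood above the other WT libraries and mutant replicate 1 below the other mutants. The difference was -0.88 ± 0.32 (SE; limma adjusted p = 0.296), and -0.60 without mutant replicate 1. MRPL41, a protein found only in mitochondrial ribosomes, had 621, 531, 756 and 614 in WT and 208, 465, 478 and 465 in mutant libraries. Its groups did not overlap either, and mutant replicate 1 was again far below the other 3. The difference was -0.71 ± 0.31 (SE; limma adjusted p = 0.345), and -0.41 without mutant replicate 1.

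MRPS34, a mitochondria-specific protein needed for a stable small subunit, had 579, 445, 388 and 745 in WT and 286, 375, 360.4 and 344 in mutant libraries. The lowest WT and the highest mutant value were 388 and 375. The difference was -0.62 ± 0.26 (SE; limma adjusted p = 0.328). MRPS2, which has a bacterial counterpart, had 695, 670.3, 1153 and 442 in WT and 347, 449, 508 and 386 in mutant libraries, with WT replicate 4 inside the mutant range. Its difference was -0.74 ± 0.30 (SE; limma adjusted p = 0.325). Without WT replicate 4, DESeq2 called MRPS2 lower (-0.98, adjusted p = 0.0420) as its 1 member called, beside 3.99% of all genes. MRPL52 and MRPL57, both specific to mitochondria, differed by -0.52 ± 0.25 and -0.58 ± 0.37 (SE) with overlapping groups. MRPL57 had 166 in mutant replicate 1 and 304 to 534 in the other mutants, and differed by -0.27 without that library.

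**Figure D2:**
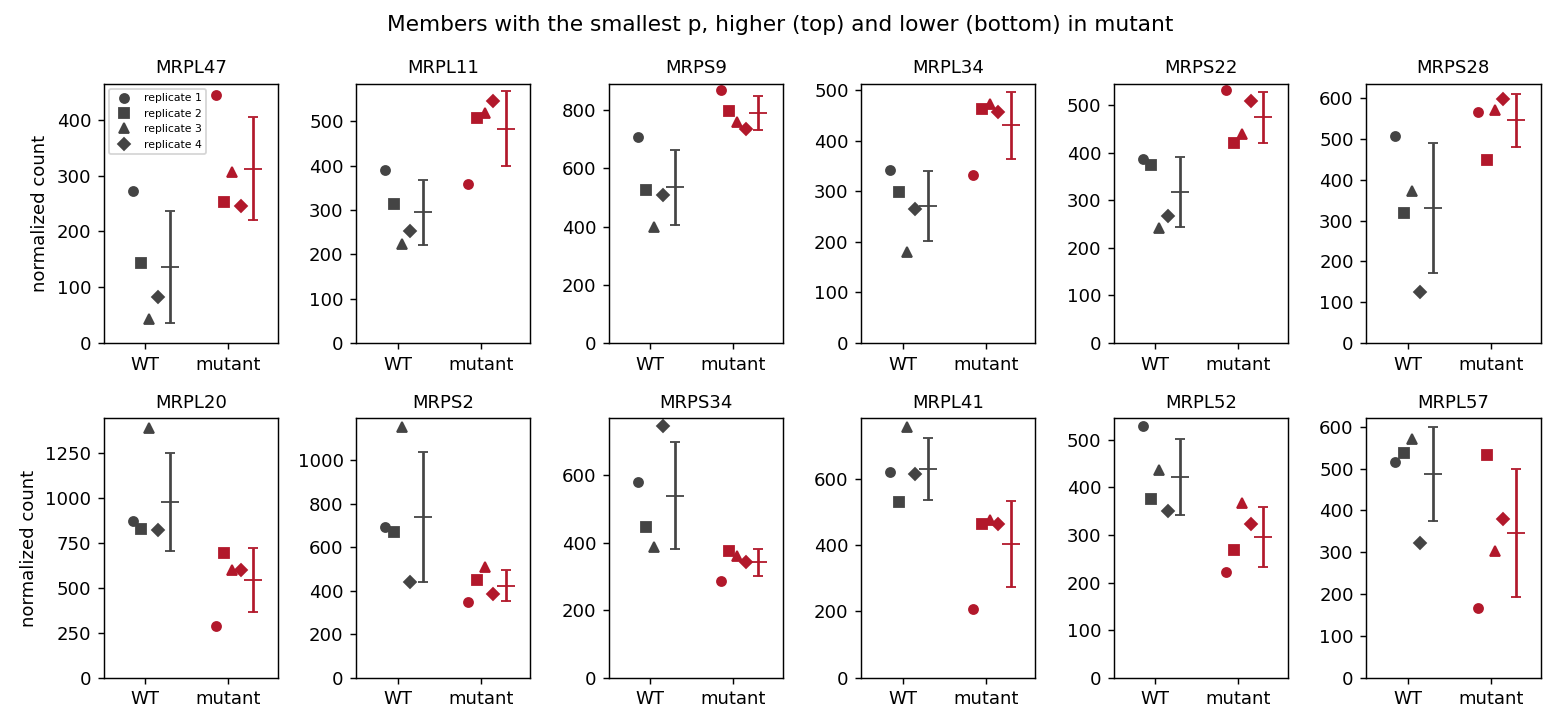
Normalized counts of the 6 members with the smallest p among those higher (top) and the 6 among those lower (bottom) in mutant libraries; each symbol is a library, its shape the replicate number, and the bar beside each group is the mean with the SD (n = 4). Groups are apart in MRPS9, MRPS22, MRPL20, MRPS34 and MRPL41, and mutant replicate 1 is the lowest mutant value in all 6 lower panels.

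Members named for their known function in the large subunit had overlapping groups. MRPL12 forms the flexible stalk that recruits translation factors. It had 2563, 2315, 1536 and 1629 in WT and 954, 2015, 2194 and 1894 in the mutants, which is a difference of -0.22 ± 0.32 (SE) that was 0.05 without mutant replicate 1. MRPL3 lies near the peptidyl transferase centre, and inherited defects of it cause cardiomyopathy. Its counts were 593, 394, 1099.7 and 687 in WT and 957, 952, 1095 and 1130.3 in mutant libraries. WT replicate 3 reached the mutant level, and the other 3 WT libraries lay below all mutants. The difference was 0.67 ± 0.30 (SE; limma adjusted p = 0.363). It was 0.43 with WT replicate 2, the lowest WT library, left out. With WT replicate 3 left out it was 0.92, and DESeq2 then called MRPL3 (log2 fold change 0.90, adjusted p = 0.0323) as 1 of 68 members, beside 4.73% of all genes. Without WT replicates 3 and 4 together limma gave 1.09, and DESeq2 called MRPL3 alone among the members (1.05, adjusted p = 0.00800), beside 5.55% of all genes.

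MRPL44, which carries a ribonuclease fold and is mutated in infantile cardiomyopathy, had 581, 389.6, 421 and 209.9 in WT and 535, 413, 434 and 454 in mutant libraries. Its difference of 0.28 ± 0.31 (SE; 95% interval -0.42 to 0.98) was -0.00097 without WT replicate 4. MRPL45 anchors the ribosome to the inner membrane, where its products are inserted. It ranged from 696 to 1531 in WT and from 887 to 1271 in the mutants, which is a difference of -0.04 (95% interval -0.66 to 0.58). MRPL58, a peptidyl-tRNA hydrolase built into the large subunit, differed by 0.13 (95% interval -0.36 to 0.61). MRPL18, of which a cytosolic form is made in heat stress, had 247 in WT replicate 3 and 412 to 644 in the other 7 libraries. Its difference was 0.31 (95% interval -0.37 to 1.00), 0.04 with WT replicate 3 left out and -0.13 with WT replicates 3 and 4 left out.

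The members with the highest mean counts were MRPL28, MRPL12, MRPS36 and MRPL38, and those with the lowest were MRPS18C and MRPL36. Counts were not divided by transcript length, so this is an order of read support and not of transcript number. MRPL28 had 1536 to 2717 in WT and 1233 to 2175 in the mutants, which is a difference of -0.21 ± 0.27 (SE). MRPL38 ranged from 930.2 to 1595 in WT and from 769.7 to 1379 in the mutants, which is a difference of -0.17 ± 0.28 (SE). MRPL36 had 92 to 268 and 146 to 235, and its difference of 0.19 ± 0.40 (SE) was -0.08 without WT replicate 3. The low count of MRPS18C left a wide interval (-0.30 to 1.82), and its value of 38.8 in WT replicate 3 rested on 8 reads.

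Several MRPS symbols do not name a protein of the small subunit. The naming rule still counts such genes among the MRPS members. MRPS36 was named as a ribosomal protein but is now known as a subunit of the oxoglutarate dehydrogenase complex. It had 1769, 1107, 2262 and 924 in WT and 1769.7, 1652, 1707 and 1730.2 in mutant libraries. The mutants were nearly equal while WT ranged widely on both sides of them, and the difference was 0.27 ± 0.30 (SE; 95% interval -0.40 to 0.93). MRPS30 and MRPS18A sit in the large subunit despite their names. MRPS30 averaged 272 ± 63.9 for WT and 273 ± 61.4 for the mutants (SD, n = 4), a difference of 0.01 (95% interval -0.61 to 0.62). MRPS18A and its relatives MRPS18B and MRPS18C, which derive from the same bacterial protein, differed by -0.22 ± 0.23, 0.07 ± 0.21 and 0.76 ± 0.47 (SE). MRPS18C ranged from 27.9 to 67.4 in WT and from 66.9 to 97.7 in mutant libraries.

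By descent, 38 members have a counterpart in bacteria on the list used here and 30 have none on it. The median difference was 0.22 in the former (26 positive, 12 negative) and 0.06 in the latter (19 positive, 11 negative). The order was reversed, at 0.11 and 0.14, with WT replicate 3 left out. Leaving out WT replicate 4 gave 0.10 and -0.03, and leaving out WT replicates 3 and 4 gave -0.04 and -0.02.

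The spread between libraries of 1 genotype was large beside the difference between genotypes. Of the 68 members, 26 were highest in WT replicate 1 and 0 were lowest there. The lowest library was WT replicate 4 for 22 members, WT replicate 3 for 18, mutant replicate 1 for 17 and WT replicate 2 for 7. Mutant replicates 2, 3 and 4 were the lowest for 2, 0 and 2 members. The log2 SD was larger in WT than in mutant libraries for 55 members (80.9%, against 84.3% of all genes), with medians of 0.41 and 0.24.

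Mutant replicate 1 stood apart from the other mutants in some members. It lay more than 1.5-fold below all 3 of them in 11 members (MRPL2, MRPL12, MRPL20, MRPL28, MRPL41, MRPL54, MRPL55, MRPL57, MRPS7, MRPS12 and MRPS25) and more than 1.5-fold above them in 2 (MRPS6 and MRPS10). No member lay that far outside its group in mutant replicates 2, 3 or 4. In WT, replicate 1 lay that far above in 9 members and below in 0, replicate 4 above in 1 and below in 12, and replicate 3 above in 5 and below in 4. MRPL3 was the member for which WT replicate 2 lay that far below.

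MRPS6, MRPS10 and MRPS12 are among the members that mutant replicate 1 set apart, and were chosen for description after their values were seen. MRPS6, a small-subunit protein with a bacterial counterpart, had 586, 764, 635 and 1401 in WT and 1869, 407, 386 and 382 in mutant libraries. Mutant replicate 1 was the highest of all 8, and the other 3 mutants were below every WT library. The difference was -0.46 ± 0.53 (SE), and -1.02 without mutant replicate 1. SLC5A3, an inositol transporter gene, overlaps MRPS6 in the RefSeq annotation. It had 112 in mutant replicate 1, 25 to 32.7 in the other mutants, 14.6 to 40.6 in 3 WT libraries, and no read in WT replicate 3, where a count of 0 allows up to 3 reads. Both genes were thus highest in mutant replicate 1, and how reads were divided between them is not given in the sources used here.

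MRPS10 had 988 in mutant replicate 1 against 447 to 493 in the other mutants and 417 to 761 in WT, and differed by 0.08 ± 0.32 (SE), or -0.19 without that library. MRPS12, at the decoding centre, had 1197, 590.0, 199 and 150.4 in WT and 369.6, 815, 1084 and 1027 in mutant libraries. Its difference of 0.99 ± 0.64 (SE) was 0.55 without WT replicate 4, 1.54 without WT replicate 1, and -0.14 with WT replicates 3 and 4 left out. SARS2, the mitochondrial seryl-tRNA synthetase gene next to MRPS12 in the annotation, had 101, 52.7, 38.8 and 38.8 in WT and 125, 99.5, 114 and 156 in mutant libraries.

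**Figure D3:**
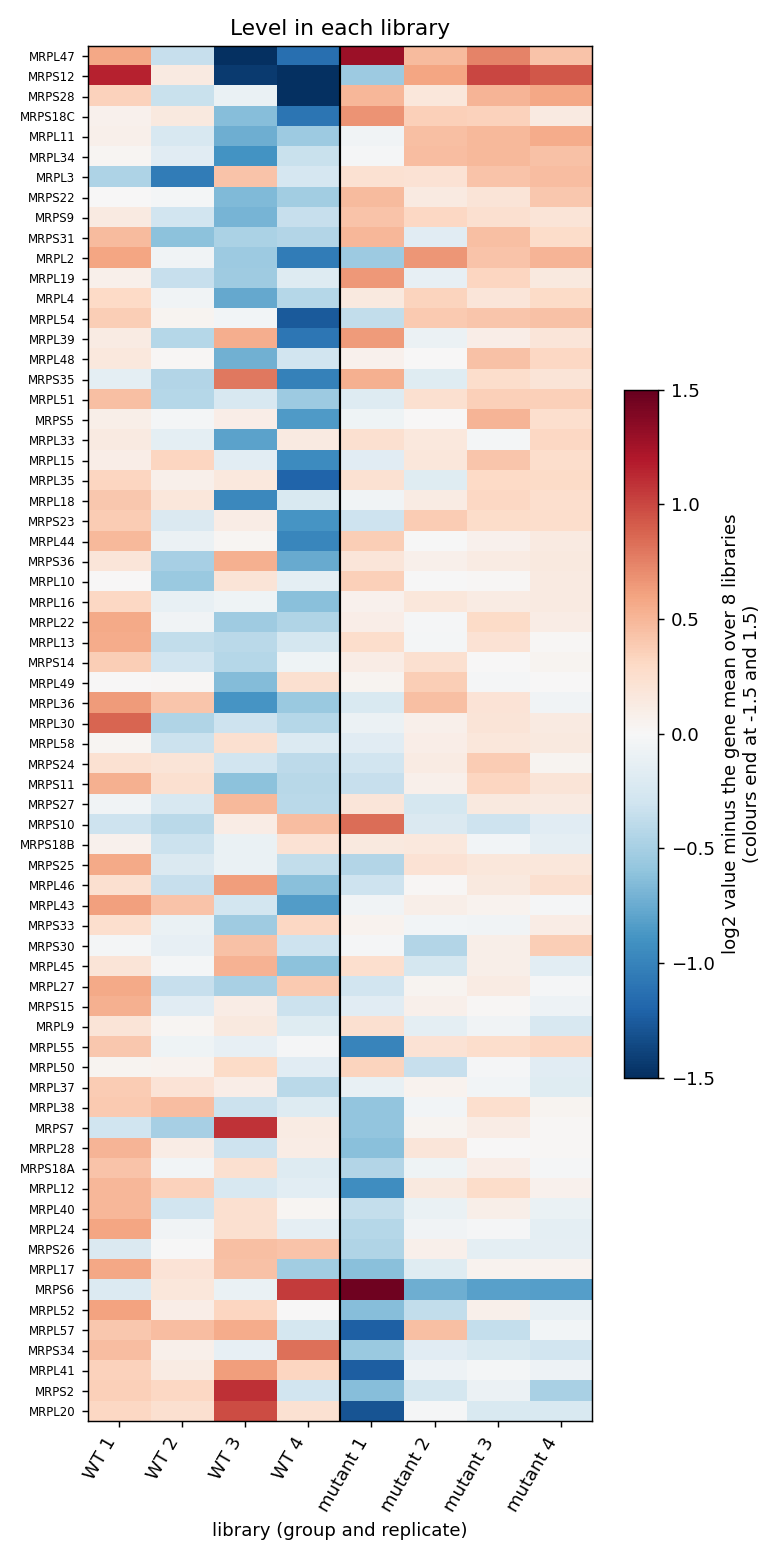
Level of each of the 68 genes (rows, ordered by their difference) in each library (columns), as the log2 value minus the gene's mean over the 8 libraries; red is above and blue below that mean, and the line separates WT from mutant. WT replicate 1 is mostly red, WT replicates 3 and 4 and mutant replicate 1 hold the strongest colours of both kinds, and mutant replicates 2 to 4 are pale.

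Some members share their place in the genome with other genes. Of 65 members placed on a chromosome in the RefSeq table (assembly Sscrofa11.1, used for gene order only), 17 overlap another protein-coding gene. Among them are MRPS22 (with COPB2), MRPL57 (SKA3), MRPL28 (TMEM8A), MRPS18B (PPP1R10) and MRPS18C (ABRAXAS1 and HELQ). These overlaps are of whole gene spans, and shared exons were not examined. As for MRPL47, whether reads of these overlaps were told apart is not known. MRPL43 overlaps TWNK, the mitochondrial DNA helicase gene. TWNK differed by 0.15 ± 0.28 (SE). MRPS11 and MRPL46 are direct neighbours, and were named for that reason after their values were seen. They had differences of 0.12 ± 0.30 and 0.05 ± 0.30 (SE). MRPL46 had 717 in WT replicate 3, its highest value, whereas MRPS11 had 484 there, its lowest.

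Proteins of the mitochondrial ribosome that carry other symbols were described beside the members, since the naming rule leaves them out. Of 5 such genes none passed limma over all genes, and 3 had positive differences (median 0.42). PTCD3, a small-subunit protein of the pentatricopeptide repeat family, had 807, 880.2, 765 and 636 in WT and 1398, 1135, 1289.9 and 1243 in mutant libraries. All mutants lay above all WT libraries, and the difference was 0.72 ± 0.20 (SE; limma adjusted p = 0.228). PTCD3 is called higher in the authors' deposited table (log2 fold change 0.71, adjusted p = 0.0204). Its limma difference was 0.58 without WT replicates 3 and 4 together. GADD45GIP1, a large-subunit protein, had 203 to 363 in WT and 96.5 to 202 in the mutants, which is a difference of -0.67 ± 0.33 (SE). CHCHD1 and AURKAIP1, both of the small subunit, differed by 0.72 ± 0.39 and -0.19 ± 0.29 (SE). CHCHD1 was at 0.34 without WT replicate 3, where it had 16 reads, and GADD45GIP1 at -0.43 without mutant replicate 1.

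None of the genes on the lists of factors that serve the mitochondrial ribosome passed limma. Differences were positive in 77.8% of the translation factor, 67.9% of the assembly and 61.9% of the synthetase genes tested, beside 56.9% of all genes. Translation factors and activators had a median of 0.41 over 18 genes, 14 positive and 4 negative. GFM1, the elongation factor that moves the ribosome along the mRNA, had 1002, 602, 688 and 211 in WT and 1660.3, 1160.3, 1421 and 1589 in the mutants, which is a difference of 1.41 ± 0.43 (SE; limma adjusted p = 0.246). TACO1, an activator of COX1 translation, had 333, 308, 310.1 and 159 in WT and 496, 472, 542 and 609.8 in mutant libraries. Its difference was 0.98 ± 0.28 (SE; limma adjusted p = 0.228), and the authors' deposited table calls it higher (adjusted p = 0.0489). Without WT replicates 3 and 4 together, GFM1 was at 0.89 and TACO1 at 0.72. MTRF1L, a release factor gene, had 664 in WT replicate 3 and 83.1 to 161 elsewhere, and SLIRP, an RNA-stabilizing protein gene, differed by -0.06 ± 0.39 (SE).

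Assembly and rRNA modification factors had a median of 0.17 over 28 measured genes of 29 listed, 19 positive and 9 negative. MTERF3, a factor in large subunit biogenesis, went the other way. It had 300.4, 299, 659 and 546 in WT and 202, 199.7, 184 and 194 in the mutants, which is a difference of -1.12 ± 0.31 (SE; limma adjusted p = 0.228), and the authors' deposited table calls it lower (adjusted p = 0.0193). Without WT replicates 3 and 4 together its difference was -0.62. The GTPase gene MTG1 differed by -0.59 ± 0.28, and YBEY and RCC1L by 0.69 ± 0.35 and 0.66 ± 0.36 (SE). These were -0.38 for MTG1 with mutant replicate 1 left out, and 0.36 for YBEY and 0.35 for RCC1L with WT replicate 4 left out.

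Genes that charge mitochondrial tRNAs had a median of 0.50 over 21 measured genes of 22 listed, 13 positive and 8 negative. The list includes GARS1 and KARS1, which also serve the cytosol, and GATC and QRSL1, which amidate a charged tRNA. IARS2, the isoleucyl-tRNA synthetase gene, had 1308, 1409, 862 and 718 in WT and 2213, 1948, 1982 and 2176 in mutant libraries. Its difference was 1.01 ± 0.26 (SE; limma adjusted p = 0.218), and the authors' deposited table calls it higher (adjusted p = 0.0302). LARS2, the leucyl-tRNA synthetase gene, differed by 1.43 ± 0.45, AARS2 by -0.55 ± 0.30 and KARS1 by -0.49 ± 0.36 (SE), the last at -0.24 without WT replicate 3. The medians of the translation factor, assembly and synthetase lists were 0.22, 0.01 and 0.26 without WT replicates 3 and 4 together.

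The mRNAs that these ribosomes translate had far larger differences than the ribosomal protein genes. All 13 were negative, with a median of -2.50, and none passed limma, while the authors' deposited table calls all 13 lower. ND1, a complex I subunit gene, had 178241 to 1289944 in WT and 24818 to 55369 in mutant libraries (difference -3.44 ± 0.62, SE), and ATP8 differed by -5.90 ± 0.78 (SE). Without WT replicates 3 and 4 together the median was -0.98. Beside these, the 68 nuclear members had their median of 0.14.

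Cytosolic ribosomal protein genes gave the other side-by-side value, from 54 genes chosen by symbol. They had a median of -0.97, with 54 negative and 0 positive, and -0.62 without WT replicates 3 and 4. They took 5.15%, 5.30%, 8.20% and 7.29% of the reads of nuclear genes in WT and 2.92%, 4.45%, 3.65% and 3.48% in the mutants (Wilson 95% half-width at most 0.0338 percentage points). Per 100 reads of cytosolic ribosomal protein genes there were 9.91, 7.72, 4.31 and 5.25 reads of mitochondrial ones in the WT libraries. The corresponding mutant values were 13.8, 10.3, 13.1 and 13.4. This ratio does not depend on size factors, and its groups did not overlap (6.80 ± 2.53 for WT and 12.6 ± 1.62 for the mutants, SD, n = 4). It was chosen after the values were seen and is given with no test. WT replicates 3 and 4, which had the highest mitochondrially encoded shares of reads (87.9% and 65.2%), had the 2 lowest ratios. The part of those shares in the ratio was not tested.

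**Figure D4:**
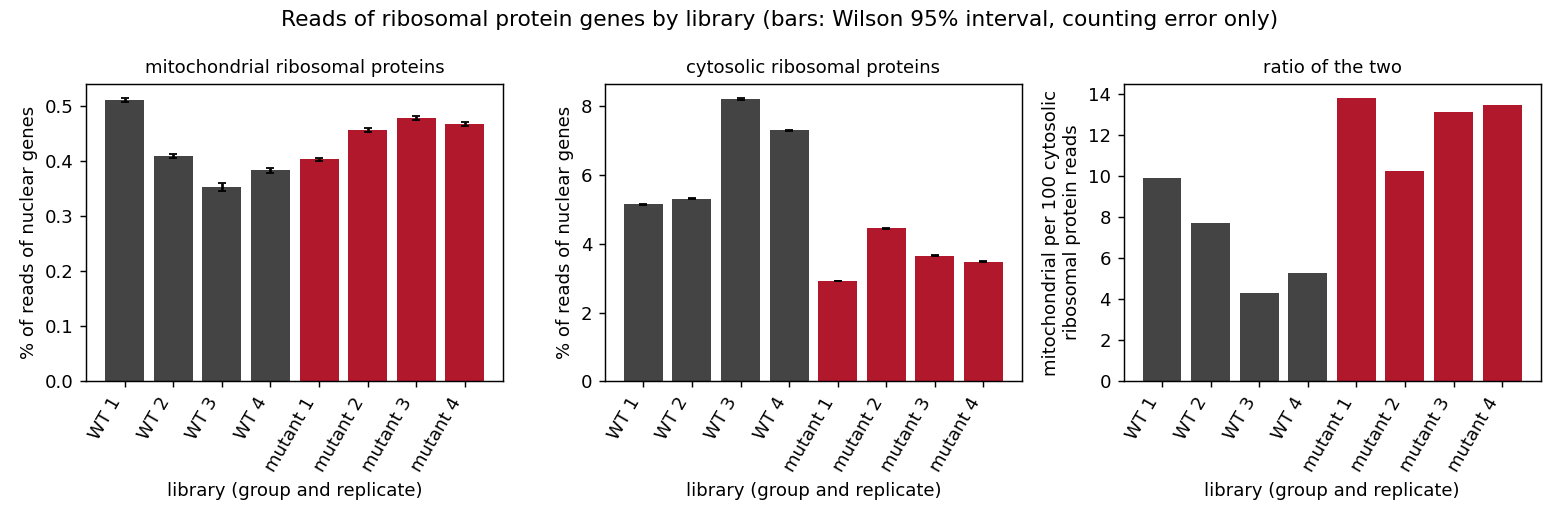
Share of the reads of nuclear genes taken by mitochondrial (left) and cytosolic (middle) ribosomal protein genes in each library, with Wilson 95% intervals, and the reads of the former per 100 of the latter (right); grey is WT and red mutant. The mitochondrial shares overlap between groups, from 0.353% to 0.51% in WT and from 0.403% to 0.478% in mutant libraries, while the cytosolic shares do not.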

How the data were processed

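The authors deposited 1 table with a row per gene symbol. Its 8 library columns hold a deposited signal in normalized counts (reads divided by a size factor), judged from the values and headers. Per the file headers, the authors also deposited a log2 fold change, its error, a test score, and a p-value before and after adjustment. The tool named is DESeq2, with no version, per the submitters' processing notes. These also name the human build GRCh38 for pig samples, so no coordinates are given. Which aligner, counter and annotation were used: not given in the sources used here. Libraries were made from polyadenylated RNA with random primers, per the labels' protocols.

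Whole reads were recovered by division (100% of values whole within 1e-06 reads). Of 14720 rows, 2 name no gene (0.392% to 0.853% of reads) and were left out. Genes with at least 10 normalized counts in at least 4 libraries entered limma 3.58.1 (R 4.3.3, trended robust prior) as log2(normalized count + 1). The added 1 understates changes of low genes, yet differences on this scale could also exceed those of DESeq2. MRPL47 had 1.47 against 1.18 in DESeq2, MRPS12 0.99 against 0.62, and MRPS2 -0.74 against -0.80. A gene was called at a p under 0.05 after Benjamini-Hochberg adjustment over all genes. Alternatives were edgeR 4.0.16 (quasi-likelihood) and DESeq2 1.42.0 on the recovered counts, other scalings, pseudocounts, filters and priors, and fits without libraries. DESeq2 without WT replicates 3 or 4 was added after the data were seen.

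The members, the lists and the alternatives were chosen with earlier results of these data known. Members named are the 6 with the smallest p in each direction, the 4 highest and 2 lowest in mean, 13 of known role, and those named as chosen later. Of each other list, at most 2 genes per direction, those of smallest p, are named. Near-identical copies such as processed pseudogenes may share reads with members, which was not tested.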

Additional observations from a re-analysis of the deposited data

Results flagged for a closer look

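In 120 groups of 4 libraries (normalized counts of the genes named and mean levels of the lists), 10 had a highest or lowest library whose gap to the next exceeded Dixon's 95% critical share of the group's range. Chance flags about 1 group in 20 where groups are chosen beforehand. That rate does not hold here, since many of these genes were named for their smallest p in the same data. MRPS6 and MRPS10 were named after their values were seen. Mutant replicate 1 was the library set apart in 5 of the 10, with 208 normalized counts of MRPL41 and 332 of MRPL34 (lowest), 1869 of MRPS6 and 988 of MRPS10 (highest), and 379 of SLIRP (lowest). WT replicate 3 was set apart in 3, with 1386 of MRPL20, 664 of MTRF1L and 1289944 of ND1, all highest. WT replicate 1 was highest for SLIRP at 1399. WT replicate 4 was lowest for TACO1 at 159.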

How the results depend on the processing

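No paired analysis was possible because the labels number the pigs in 1 running series, so that no number is shared between the genotypes, and name no pairing. limma and edgeR called 0 members in each setting run. Over all genes limma called 0, with 3 after quantile normalization, 92 with array quality weights, 0 to 3 with 1 library left out and 12 with WT replicates 3 and 4 left out. DESeq2 called 582 genes with all libraries. Without WT replicate 3, without WT replicate 4 and without both it called 591, 510 and 698, with 1 member each time. These DESeq2 fits were chosen after seeing the data. All genes had a median difference of 0.12 in limma, of 0.15 after TMM rescaling, 0.02 after quantile normalization and -0.03 in DESeq2, where the members had medians of 0.14, 0.17, 0.16 and 0.12.

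With 1 library left out, the median of the members was 0.06 to 0.28, and that of the mitochondrially encoded mRNAs was -3.06 to -1.65. The number of members whose groups did not overlap was 2 to 15 higher and 3 to 7 lower. Without WT replicates 3 and 4 together, 4 members lay higher and 10 lower. The share of all genes in these fits is not given here, and fewer libraries separate more easily. Whether the members exceeded that share was not tested. Medians were then -0.079 for MRPL genes (DESeq2 -0.097), -0.043 for members with a bacterial counterpart (DESeq2 -0.052) and 0.17 for ribosomal proteins with other symbols (DESeq2 0.12). They were -0.98 for mitochondrially encoded mRNAs (DESeq2 -0.92, quantile normalization -0.65) and, in DESeq2, 0.19 for the synthetases. The causes were not tested.

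Of 49 genes named, 35 kept their sign in each setting and 14 did not. Among the 31 members named, 19 kept it. Many of these genes were named for their smallest p in the same data, which favours a stable sign. With 1 library left out, differences ranged from -0.15 to 0.27 for MRPL46, from -0.25 to 0.13 for MRPL45, from -0.12 to 0.15 for MRPS30 and from -0.076 to 0.43 for MRPL36. They ranged from -0.20 to 0.29 for SLIRP, from -0.19 to 0.24 for MRPS10, from -0.029 to 0.15 for MRPS18B and from -0.062 to 0.32 for MRPS11. They ranged from -0.00097 to 0.49 for MRPL44, from -0.35 to 0.049 for MRPL12 and from -0.33 to 0.041 for AURKAIP1. MRPL46 was -0.0047 in DESeq2. Quantile normalization gave 0.014 for MRPL45 and -0.0033 for MRPS30, and array quality weights gave -0.18 for MRPL36 and 0.0013 for SLIRP. Without WT replicates 3 and 4, limma gave -0.44 for MRPL36, -0.13 for MRPL18, -0.059 for MRPL44, -0.14 for MRPS12 and -0.33 for MRPS11. DESeq2 then gave -0.44, -0.15, -0.097, -0.13 and -0.33 for these, and 0.15 for MRPS6. DESeq2 without WT replicate 3 gave -0.14 for MRPL36, 0.10 for MRPL45 and -0.093 for MRPS11. DESeq2 without WT replicate 4 gave -0.11 for MRPL36, -0.022 for MRPL44, -0.068 for MRPS30, 0.20 for MRPS6, -0.061 for MRPS11 and -0.17 for MRPL46.

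Depth limits WT replicate 3 most, where 1 read is worth 4.84 normalized counts and the least covered members had 8 and 9 reads.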
